A study of Mus musculus with 4 samples.

Results

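The Toll-like receptor genes Tlr1, Tlr2, Tlr3, Tlr4, Tlr5, Tlr6 and Tlr9, the lipopolysaccharide co-receptor genes Cd14 and Ly96, and the adaptor gene Myd88 are described here by the open chromatin around them in mouse acute myeloid leukemia cells. These 10 genes were chosen by name from 21755 protein-coding genes on the autosomes and X, and all of them were found in the annotation. For each gene, every peak from 50 kb before the gene to 50 kb after it was taken from the peak lists of both biological replicates, with the hotspots, which are wider regions of enrichment, that cover those peaks. The cells are labelled acute myeloid leukemia, a cancer in which immature myeloid blood cells accumulate, from the C57BL/6J strain. The labels class them as in vitro differentiated, give no treatment, record the age as unknown and the sex as not collected, and name the same donor for all samples. There were 4 libraries, 2 for each of the 2 biological replicates, and no control or second condition.

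DNase-seq cuts accessible DNA in isolated nuclei with the enzyme DNase I and sequences the cut ends. Each replicate has 1 peak list, in windows of 150 bp, made from both of its libraries, so no value has a replicate error and no test between groups was possible. Only the labels tell the biological replicates apart as separate samples. The depth of sequencing was unknown. The peak score is the authors' own and its scaling is not stated, so a score is read here only against its own list. The lists differed in length, with 236215 peaks on the autosomes, X and Y in replicate 1 (median score 74, highest 150) and 67438 in replicate 2 (median score 35, highest 138). The cell type was checked on marker genes. Of 10 myeloid and leukocyte markers, 9 had a promoter peak in both lists, and Elane, which encodes neutrophil elastase, had one in replicate 1 alone. None of 4 T cell, 3 erythroid and 2 liver markers did, and 1 of 2 epithelial markers, Epcam, did. Of the T cell and erythroid markers, Cd3e, Gata1 and Klf1 had a promoter peak in replicate 1 alone.

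Toll-like receptors are transmembrane proteins of the innate immune system that bind molecules common to microbes. Those at the cell surface mostly read bacterial lipids and proteins, and those in endosomes mostly read nucleic acids. Nearly all of them pass the signal to MyD88, which recruits IRAK kinases and leads to activation of NF-kB, whereas Tlr3 signals through the adaptor encoded by Ticam1. Monocytes, macrophages and neutrophils carry many of these receptors.

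Sequences are shown for promoter and distal sites on which the results below turn, as they read on the strand of the gene in the mouse reference of the mm10 build, with exonic sequence left out. Capitals mark exact matches to a short motif on either strand. The motifs were PU.1-type ETS (GAGGAAGT), generic ETS (CCGGAAGT), C/EBP (TTGCNNAA), RUNX (TGTGGTT), AP-1 (TGANTCA), CTCF (AGNNGGCGC), IRF (GAAANNGAA), a composite of ETS and IRF (GGAANNGAA) and the NF-kB consensus. A match is a string of letters and not evidence of a bound factor.

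For the lipopeptide receptors, the first line gives the stretch just upstream of the annotated Tlr2 exon (chr3:83841768-83841858), taken from the RefSeq promoter, whose capitals hold 2 overlapping NF-kB matches. This stretch lies outside the Tlr2 promoter peak found in both lists. The second line is the shared peak outside promoters within 50 kb of Tlr2 whose nearest protein-coding start is that of Tlr2 (chr3:83863096-83863245), with an ETS-IRF composite and a C/EBP match. The third is the part of the Tlr1 promoter peak before the exon (chr5:64933564-64933685), with a PU.1-type match. The last 2 lines are the neighbouring peaks upstream of Tlr6, found in replicate 1 alone (chr5:64961176-64961325, an AP-1 and a C/EBP match) and in replicate 2 alone (chr5:64960936-64961085, a PU.1-type match).
Tlr2 upstream of the exon: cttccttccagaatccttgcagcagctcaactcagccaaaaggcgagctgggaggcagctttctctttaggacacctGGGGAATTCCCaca
Tlr2 distal peak: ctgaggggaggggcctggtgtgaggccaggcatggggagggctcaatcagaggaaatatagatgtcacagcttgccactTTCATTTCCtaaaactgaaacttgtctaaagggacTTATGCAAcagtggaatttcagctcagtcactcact
Tlr1 promoter peak: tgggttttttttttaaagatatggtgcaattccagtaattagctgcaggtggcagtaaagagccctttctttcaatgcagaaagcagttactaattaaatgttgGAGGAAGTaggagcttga
Tlr6 upstream peak of replicate 1: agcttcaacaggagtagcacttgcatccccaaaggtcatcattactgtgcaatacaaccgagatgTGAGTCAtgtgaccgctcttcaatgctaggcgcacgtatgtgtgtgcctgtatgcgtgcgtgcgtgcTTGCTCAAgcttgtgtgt
Tlr6 upstream peak of replicate 2: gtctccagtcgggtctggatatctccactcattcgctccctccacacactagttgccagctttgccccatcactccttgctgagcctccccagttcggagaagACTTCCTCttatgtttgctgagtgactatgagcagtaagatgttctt

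For the flagellin receptor gene Tlr5, the promoter peak (chr1:182953776-182953925) holds an ETS-IRF composite match. The distal peaks shown are chr1:182928616-182928765, with a PU.1-type match, and chr1:182983116-182983265, with an AP-1 match. The Tlr9 promoter peak (chr9:106222436-106222585) also holds an AP-1 match. The last line is the part of the internal Myd88 promoter peak that lies outside exons (chr9:119340042-119340125), with an IRF match.
Tlr5 promoter peak: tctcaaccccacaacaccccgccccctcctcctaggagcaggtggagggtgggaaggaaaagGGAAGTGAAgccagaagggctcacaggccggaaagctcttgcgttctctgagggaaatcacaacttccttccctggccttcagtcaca
Tlr5 upstream distal peak: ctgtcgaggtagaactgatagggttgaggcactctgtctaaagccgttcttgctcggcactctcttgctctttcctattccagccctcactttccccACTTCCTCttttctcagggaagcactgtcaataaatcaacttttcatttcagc
Tlr5 downstream distal peak: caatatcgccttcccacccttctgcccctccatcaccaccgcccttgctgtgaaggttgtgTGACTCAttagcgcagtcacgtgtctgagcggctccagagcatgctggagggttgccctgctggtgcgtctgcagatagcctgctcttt
Tlr9 promoter peak: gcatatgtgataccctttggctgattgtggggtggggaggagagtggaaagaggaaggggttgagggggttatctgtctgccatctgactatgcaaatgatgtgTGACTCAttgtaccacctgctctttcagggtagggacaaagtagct
Myd88 internal promoter peak: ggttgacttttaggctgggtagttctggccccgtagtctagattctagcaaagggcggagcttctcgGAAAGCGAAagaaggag

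The first question was whether the promoters of these genes were open in both replicates. Promoters reach 1 kb to each side of the start of any transcript of a protein-coding gene, and a peak is called shared when a replicate 1 peak overlaps a replicate 2 peak by at least 1 bp. Of the 10 genes, 9 had a shared promoter peak, against 58.2% of all protein-coding genes (12658 of 21755). The exception was Tlr3. A promoter peak in replicate 1, shared or not, was found for all 10 genes, against 71.1% of all protein-coding genes.

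Among the 12658 genes with a shared promoter peak, most of these 9 scored below the median. The best shared promoter peak had a median score of 138 in replicate 1 over the 9 genes, against 145 over the 12658 genes with a shared promoter peak. In replicate 2 the medians were 45 for the 9 genes and 75 for all 12658. Of the 9 genes, 6 lay below the median of all genes in replicate 1 and 8 lay below it in replicate 2, where Myd88 was the exception. The Myd88 peak counted here is nearer to a start of Acaa1a than to one of Myd88. The covering replicate 2 hotspot reached the ceiling of the deposited −log10 q scale, 100, for 4 of the 9 genes (44.4%), against 82.8% of the 12658. In a bulk sample, a site open in fewer cells and a site less open in each cell cannot be told apart.

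**Figure D1:**
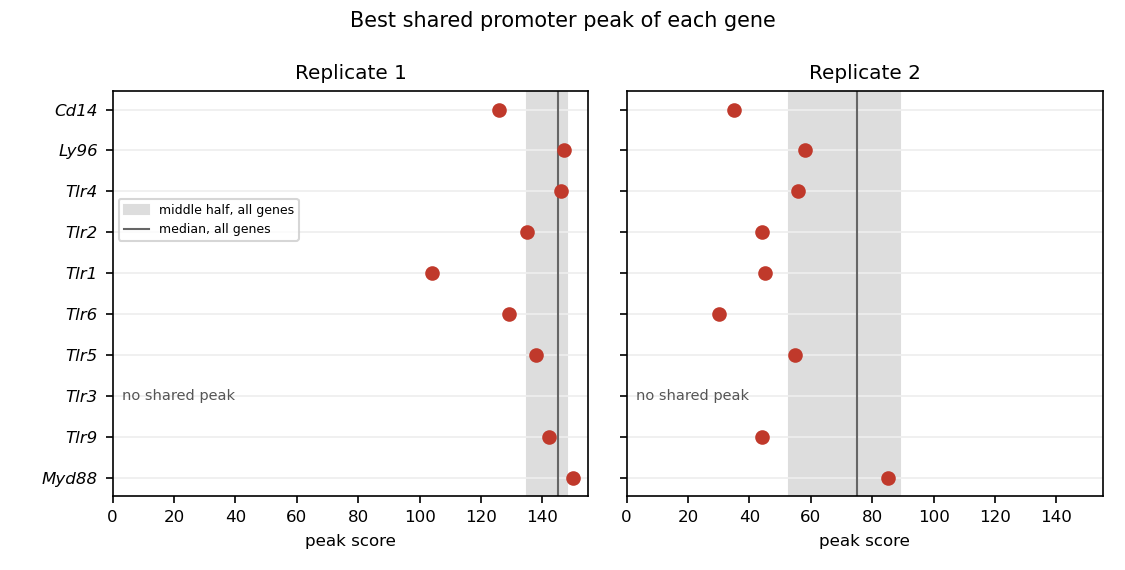
Score of the best shared promoter peak of each gene (x axis, peak score, no unit) in replicate 1 (left) and replicate 2 (right), with the median (line) and the span from the lower to the upper quartile (grey) of the 12658 protein-coding genes with a shared promoter peak. Red points are the 9 genes with such a peak. In replicate 2, 8 of them lie left of the median of 75, and Myd88, at 85, lies right of it, by a peak nearest to a start of Acaa1a.

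Outside promoters, 9 of the 10 genes had at least 1 shared peak within 50 kb, against 80.8% of all protein-coding genes, and again the exception was Tlr3. The median was 3.5 such peaks per gene, against 3 over all protein-coding genes. Within 10 kb of the gene, 5 of the 10 genes had such a peak, against 58.8% of all protein-coding genes. Counting only peaks whose nearest protein-coding start was the gene's own, 6 of 10 genes had one, against 54.6% of all protein-coding genes. All 10 windows together, with overlapping stretches counted once, held 231 replicate 1 peaks, of which 64 (27.7%) overlapped a replicate 2 peak, against 26.1% of the whole replicate 1 list. They held 71 replicate 2 peaks, of which 64 (90.1%) overlapped a replicate 1 peak, against 91.9% of the whole replicate 2 list. These shares lie near those of the lists as a whole. With the replicate 1 list cut to the length of the replicate 2 list, 60.2% of the replicate 1 peaks left in the windows were shared, against 70.0% of that shortened list.

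Sharing differed by the kind of site and by the score. At promoters of any coding gene, 28 of 59 replicate 1 peaks in the windows were shared (47.5%), against 44.2% of promoter peaks in the whole list. Outside promoters the share was 36 of 172 (20.9%), against 22.0% in the whole list. None of the 39 window peaks scoring 1 to 59 was shared, against 1.9% in the whole list. From 60 to 99 the share was 5.56% in the windows and 14.2% in the whole list, and from 100 to 129 it was 35.1% in the windows and 54.2% in the whole list. Of the 45 window peaks scoring 130 to 150, 39 were shared (86.7%), against 91.4% in the whole list. In all 4 score bands the windows thus had the lower share, and the number of peaks behind each was small.

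**Figure D2:**
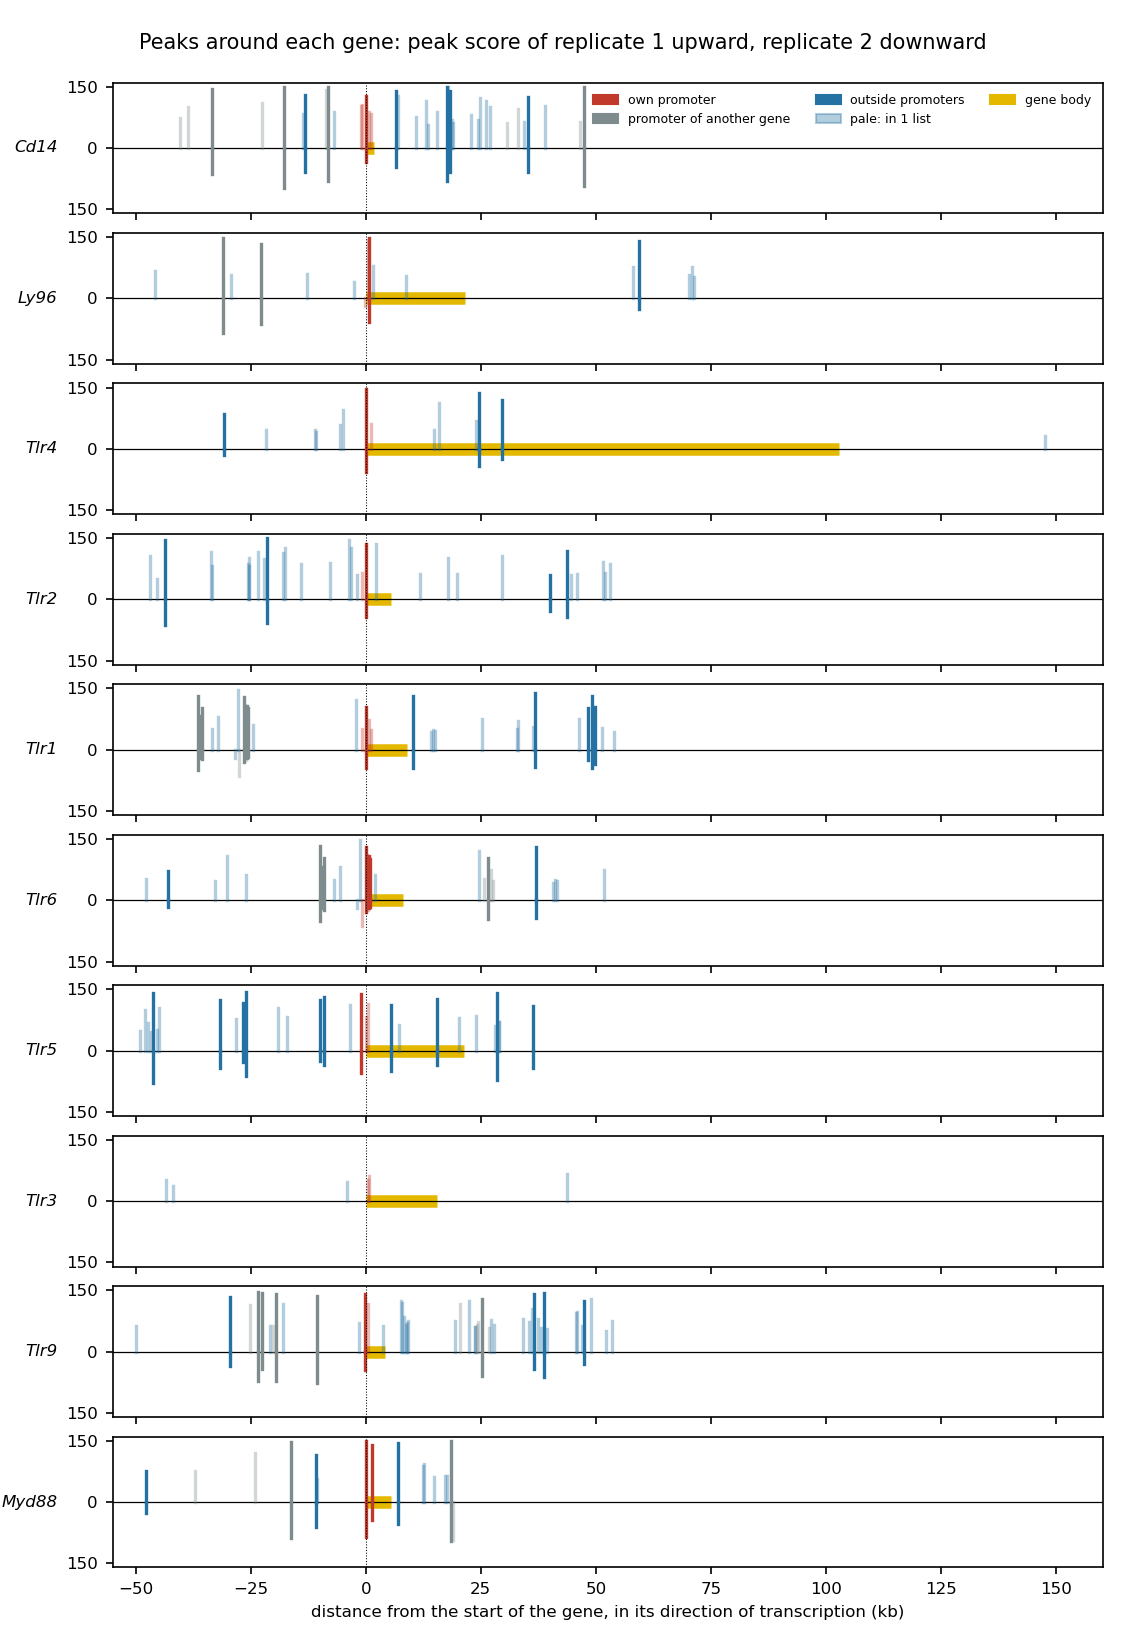
Peaks around each gene by distance from its start in kb (x axis, negative upstream), drawn as lines as long as their peak score, upward for replicate 1 and downward for replicate 2, with solid lines for shared peaks and pale lines for peaks of 1 list. Colours separate the gene's own promoter, promoters of other genes and sites outside promoters, and yellow marks the gene body. Tlr3 has 6 pale upward lines and nothing downward, and Tlr5 has 10 solid lines outside promoters.

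The lipopolysaccharide receptor complex consists of Cd14, which hands over the lipid, Ly96, whose product MD-2 holds it, and Tlr4, which signals. All of these genes had a shared promoter peak. Positions below are counted from the annotated start of the gene in its direction of transcription, with a minus sign upstream. Tlr4 (chr4:66827584-66930284, plus strand) had no other protein-coding gene in its window. Its promoter peak, at 0.027 kb, scored 146 in replicate 1 and 56 in replicate 2, and lay in a replicate 2 hotspot at the ceiling. A second promoter peak, in an intron at 1.25 kb, scored 61 in replicate 1 and had no partner. All 3 other shared peaks of the window were nearest to Tlr4. The intronic peak at 24.6 kb scored 137 in replicate 1 and 42 in replicate 2. The intronic peak at 29.6 kb scored 119 and 25, and held an AP-1 match. The upstream peak at -30.7 kb scored 86 and 14, and held a C/EBP and an ETS-IRF composite match. The window held 14 replicate 1 and 4 replicate 2 peaks in all, and every replicate 2 peak was among the shared ones.

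Ly96 (chr1:16688051-16709611, plus strand) had the second highest-scoring shared promoter peak of the 10 genes in both lists, with scores of 147 in replicate 1 and 58 in replicate 2. The peak lay at 0.64 kb in an exon, beside a replicate 1 peak scoring 143 at 0.4 kb and a replicate 2 peak scoring 19 at -0.06 kb that had no partner. Of 4 shared peaks in the window, 2 were at the promoters of Eloc and Tmem70. The remaining one, at 59.4 kb, beyond the end of the gene, scored 141 in replicate 1 and 26 in replicate 2. No other protein-coding start is nearer to it than that of Ly96.

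Cd14 (chromosome 18, 36725067 to 36726798, minus strand) lies among 9 other protein-coding genes. Its promoter peak, at 0.127 kb in an exon, scored 126 in replicate 1 and 35 in replicate 2. It ranked low among open promoters, with 16.7% of the 12658 genes at or below it in replicate 1 and 11.8% in replicate 2. A further 4 replicate 1 promoter peaks, scoring 82, 89, 103 and 106, had no partner in replicate 2. The peak 6.67 kb from the start, downstream of this short gene, outscored the promoter in both lists, with 140 in replicate 1 and 46 in replicate 2. Both peaks held an ETS-IRF composite match.

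Tlr2 pairs with Tlr1 or Tlr6 to read bacterial lipopeptides. Tlr2 (chr3:83836272-83841767, minus strand) had no other protein-coding gene in its window. Its promoter peak, at 0.096 kb, scored 135 in replicate 1 and 44 in replicate 2, where the covering hotspot had a −log10 q of 1.8, the lowest of the 9 open promoters. A replicate 1 promoter peak at -0.884 kb scored 65 and had no partner. The shared promoter peak held an NF-kB match, and the RefSeq promoter held 3, at -173, -172 and -8 from the RefSeq start, of which the first pair overlap and are shown above. That pair lies outside the shared peak, and the match inside the peak is the one at -8. An NF-kB match was present in 8.46% of all RefSeq promoters. The shared peak outside promoters nearest to the Tlr2 start, at -21.4 kb, outscored the promoter in both lists, with 149 in replicate 1 and 58 in replicate 2. The other 3 shared peaks of the window were nearest to Sfrp2 or Tmem131l.

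Tlr2 also had strong replicate 1 peaks with no counterpart. The peak at -3.58 kb scored 144 and the intronic peak at 2.16 kb scored 136, and neither lay in a replicate 2 hotspot. Over all 10 windows, 6 of the 45 replicate 1 peaks scoring at least 130 had no partner. The other 4 of these 6, near Ly96, Cd14 (2 peaks) and Tlr6, lay in a replicate 2 hotspot. In the whole list, 36.1% of 2381 such peaks did. The Tlr2 peak at -3.58 kb held an AP-1 match.

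Tlr1 and Tlr6 are neighbours on chromosome 5 in the same orientation, so their windows overlap and share peaks. Tlr1 (chr5:64924679-64933563, minus strand) had a promoter peak at -0.048 kb that scored 104 in replicate 1 and 45 in replicate 2. It was the lowest of the 9 open promoters in replicate 1, where 6.79% of the 12658 genes lay at or below it, but it lay in a replicate 2 hotspot at the ceiling and ranked higher there (18.8%). A further 3 replicate 1 promoter peaks, scoring 48, 51 and 73, had no partner. The 5 shared distal peaks nearest to Tlr1 all lay downstream. The peak at 36.8 kb scored 140 in replicate 1 and 42 in replicate 2. The peak at 49.2 kb scored 131 and 45, and the one at 10.4 kb scored 131 and 44. All 3 exceeded the Tlr1 promoter in replicate 1, whereas in replicate 2 they lay at or just below it.

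Tlr6 (chr5:64952031-64960097, minus strand) had several peaks spread over its start. The replicate 1 peaks at -0.014, 0.366, 0.766 and 1.01 kb scored 129, 110, 107 and 101. The replicate 2 peaks at -0.914 and 0.526 kb scored 63 and 24, and those that overlapped a replicate 1 peak scored 30, 20 and 17. The best shared peak, 129 in replicate 1 and 30 in replicate 2, was the lowest of the 9 in replicate 2, where 8.42% of the 12658 genes lay at or below it, and Tlr6 had no shared promoter peak once peaks below the median score of each list were left out. The strongest peak near the start was not a shared one in either list. In replicate 1 it lay at -1.15 kb and scored 147, and in replicate 2 it lay at -0.914 kb and scored 63. These peaks, both shown above, were 90 bp apart. They lay in 1 replicate 1 hotspot of 3200 bp and in 1 replicate 2 hotspot of 1189 bp, both at the ceiling, so the open region was called in both replicates and its peaks at different places.

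**Figure D3:**
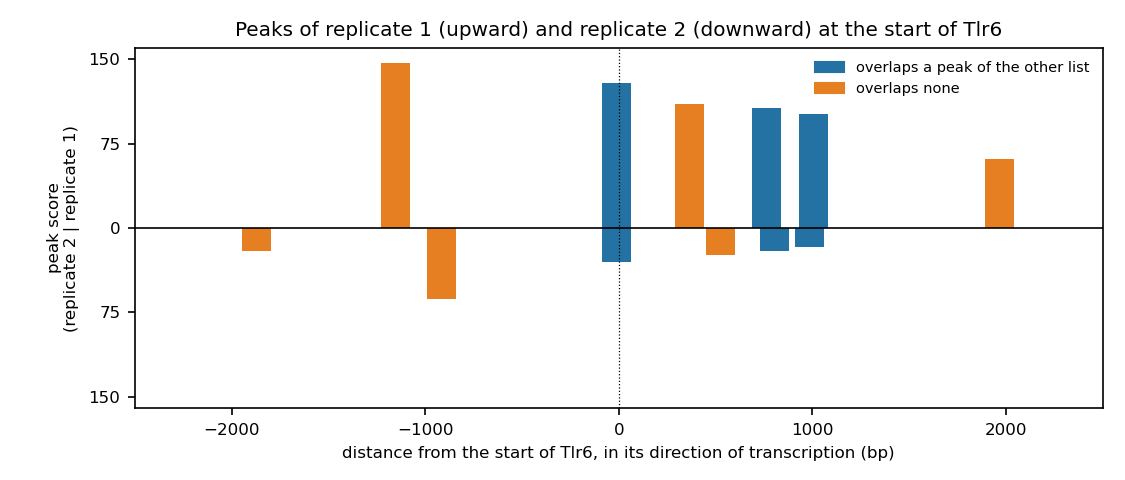
Peaks within 2.5 kb of the start of Tlr6 by distance from the start in bp (x axis, negative upstream), with bars as wide as the peak and as high as its peak score, upward for replicate 1 and downward for replicate 2. Blue bars overlap a peak of the other list and orange bars overlap none. The highest bar of either list, 147 in replicate 1 and 63 in replicate 2, is orange, and these bars lie 90 bp apart upstream of the start.

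The windows held 7 replicate 2 peaks with no partner, of which 5 were in the stretch around Tlr1 and Tlr6, with gaps of 10, 10, 90, 130 and 570 bp to the nearest replicate 1 peak. Of the remainder, 1 near Ly96 had a gap of 310 bp and 1 in the Myd88 window, at Oxsr1, had a gap of 290 bp. All 71 replicate 2 peaks of the windows (100%) lay in a replicate 1 hotspot, against 98.8% of the whole replicate 2 list. In the whole replicate 2 list, 5438 peaks had no partner, with a median gap of 150 bp.

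Tlr5, the receptor for flagellin, had the most shared sites of its own among the 10 genes. Tlr5 (chr1:182954788-182976044, plus strand) has no other protein-coding gene in its window, which held 29 replicate 1 and 11 replicate 2 peaks. All 11 replicate 2 peaks were shared, 1 at the promoter and 10 outside. At least 10 shared peaks outside promoters were found for 8.09% of all protein-coding genes, and at least 10 nearest to the gene's own start for 1.87%. They lay on both sides of the gene and within it, from -46.2 to 36.3 kb, with replicate 1 scores from 109 to 143 and replicate 2 scores from 25 to 80. The 3 highest-ranked were those at -46.2 kb (141 in replicate 1, 80 in replicate 2), 28.4 kb (142 and 71) and -26.1 kb (143 and 61). The first of them is within 1 kb of the start of a noncoding gene, Gm37542. All 3 outscored the Tlr5 promoter peak in both lists. That peak, at 138 in replicate 1 and 55 in replicate 2, lay -0.937 kb from the start, so Tlr5 had no shared promoter peak when promoters were narrowed to 500 bp. The replicate 1 peaks at 0.043 and 0.483 kb, which scored 83 and 113, had no partner in replicate 2.

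**Figure D4:**
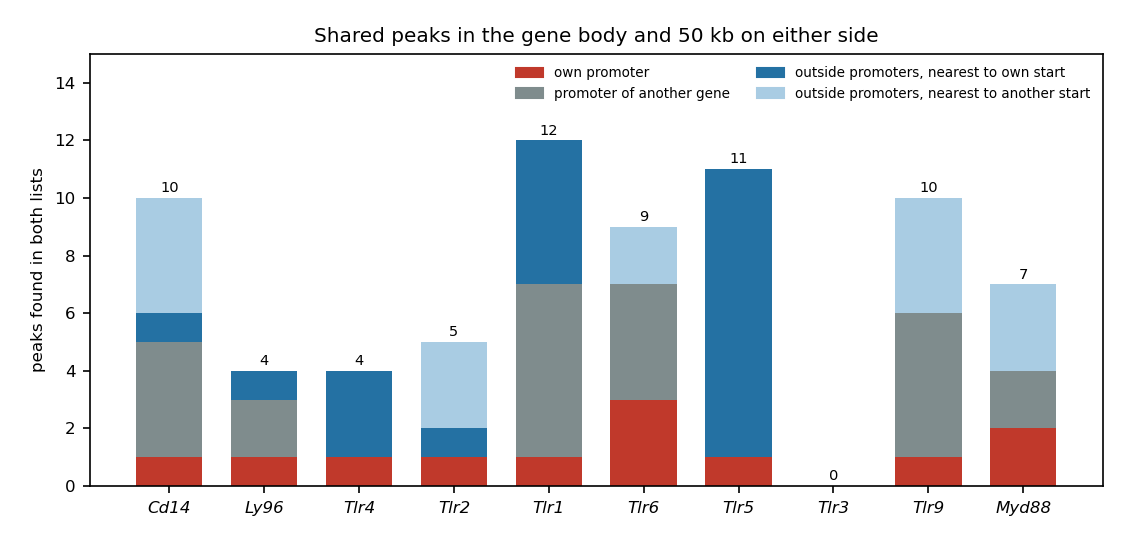
Number of shared peaks from 50 kb before to 50 kb after the gene (y axis) for each gene (x axis), stacked by kind, with the total above each bar. Tlr5 has 10 peaks outside promoters nearest to its own start, Tlr1 has 5, and Tlr3 has no shared peak.

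The nucleic acid receptors lay at opposite ends of the range of peak numbers in replicate 1. Tlr3, the receptor for double-stranded RNA, had no replicate 2 peak and no replicate 2 hotspot in its window (chr8:45345665-45461080). Replicate 1 had 6 peaks there, a number that 82.3% of all protein-coding genes reach, with scores of 37, 47, 51, 52, 62 and 66, all below the median of that list. The promoter peaks were those scoring 51 and 62, at 0.429 and 0.709 kb, each close to a different internal start. Both lay within 1 hotspot of 575 bp. The peak scoring 51 held an NF-kB match.

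Tlr9 (chr9:106222598-106226883, plus strand), the receptor for unmethylated CpG DNA, had a promoter peak at -0.087 kb that scored 142 in replicate 1 and 44 in replicate 2. It ranked higher in replicate 1, with 39.6% of the 12658 genes at or below it, than in replicate 2, with 18.0%. An intronic replicate 1 peak at 0.573 kb scored 117 and had no partner. The window held 46 replicate 1 peaks, a number reached by 11.4% of all protein-coding genes, and 10 shared ones. None of the 4 shared peaks outside promoters was nearest to Tlr9, and 5 shared peaks were at the promoters of Ppm1m, Twf2 and Alas1. The RefSeq promoter of Tlr9, from 250 bases before to 50 bases after its start, held 0 CpG dinucleotides, as did 5.42% of the 32841 RefSeq promoters.

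Myd88 (chr9:119335934-119341411, minus strand) had the strongest promoter peak of the 10 genes. It scored 150 in replicate 1, the top of that list, and 85 in replicate 2, where 68.0% of the 12658 genes lay at or below it. The peak, at 0.14 kb, is also within 1 kb of a start of Acaa1a, a peroxisomal thiolase gene, so it belongs to both genes by annotation. The protein-coding start nearest to it is one of Acaa1a. A second shared promoter peak, at 1.36 kb, is also near starts of both genes, and the nearest is one of Myd88. It scored 140 in replicate 1 and 43 in replicate 2, below the medians of 145 and 75 over the 12658 genes. It held the IRF match shown above, GAAAGCGAA, which begins 40 bases before the RefSeq start of Myd88. An IRF match was present in 8.56% of all RefSeq promoters. None of the 3 shared peaks outside promoters was nearest to Myd88.

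RefSeq promoter sequences of the build GRCm38.p6 were matched for 7 of the 10 genes, those of the receptors Tlr1, Tlr2, Tlr3, Tlr5, Tlr6 and Tlr9 and of Myd88. GC content ran from 40.3% in the promoter at the outer start of Tlr1, and also of Tlr6, to 62.0% in Tlr2, against a median of 52.7% over all promoters. The PU.1-type letters stood at -23 of the Tlr1 start and at 10 of the Tlr9 start, and were present in 3.2% of all promoters. The internal Tlr6 promoter held a RUNX match, present in 5.27% of all promoters, a C/EBP match, present in 10.8%, and 2 IRF matches.

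Among shared peaks of the windows, motif counts were small. Of the 28 at promoters, 5 held a CTCF match (17.9%, against 8.51% of 19651 shared promoter peaks), and none of these was at a promoter of the 10 genes other than Ly96. PU.1-type, AP-1, IRF, ETS-IRF composite and NF-kB matches each stood in 2 (7.14%), against 3.16%, 3.33%, 3.41%, 4.57% and 5.91% of all shared promoter peaks. A RUNX match stood in 1 (3.57%, against 2.53%), and C/EBP and generic ETS matches in none, against 5.86% and 4.37%. Of the 36 outside promoters, 6 held a C/EBP match (16.7%, against 12.7% of 42117) and 6 an ETS-IRF composite match (16.7%, against 7.69%). AP-1 stood in 5 (13.9%, against 8.13%), NF-kB in 3 (8.33%, against 3.37%) and IRF in 3 (8.33%, against 5.65%). CTCF stood in 2 (5.56%, against 8.9%), and the PU.1-type match in 1 (2.78%, against 7.48%), the Tlr5 peak shown above. RUNX and generic ETS stood in none, against 7.84% and 0.855%. Peaks with a C/EBP and an ETS-IRF composite match together were found at the sites named above of Ly96, Tlr4 and Tlr2, and near Tlr9.

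Other genes of the pathway were read from a list of 34. A shared promoter peak was found for 27 of them (79.4%), against 58.2% of all protein-coding genes. It was present for all 14 genes of the signal relay from TRAF adaptors to NF-kB and IRF factors, all 8 adaptors and kinases and all 3 genes for the trafficking of receptors. The highest-ranked were Hsp90b1, a chaperone needed to fold the receptors (150 in replicate 1, 102 in replicate 2), Irf3, a transcription factor of the interferon response (150 and 101), Tollip, an adaptor that dampens the signal (148 and 104, at an internal start and with no shared peak at the start of the gene record), and Cnpy3, a co-chaperone of Hsp90b1 (150 and 94). In replicate 2 the median score was 70.0 for the relay genes, 79.0 for adaptors and kinases and 94.0 for trafficking genes.

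The receptors outside the 10 genes showed another picture, with 0 of 5 having a shared promoter peak. Tlr7 and Tlr8, receptors for single-stranded RNA, had a replicate 1 promoter peak alone, scoring 94 and 102. So did Tlr11 (52) and Tlr12 (112), which bind profilin of protozoa, and Tlr13 (128), which binds bacterial ribosomal RNA. Among co-receptors, Lbp, which binds lipopolysaccharide in serum, and Ly86, which encodes MD-1, had a shared promoter peak, though that of Ly86 overlapped by less than 75 bp. Cd180, the receptor partner of MD-1, had one in replicate 1 alone (126), and Cd36, a scavenger receptor, had none.

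**Figure D5:**
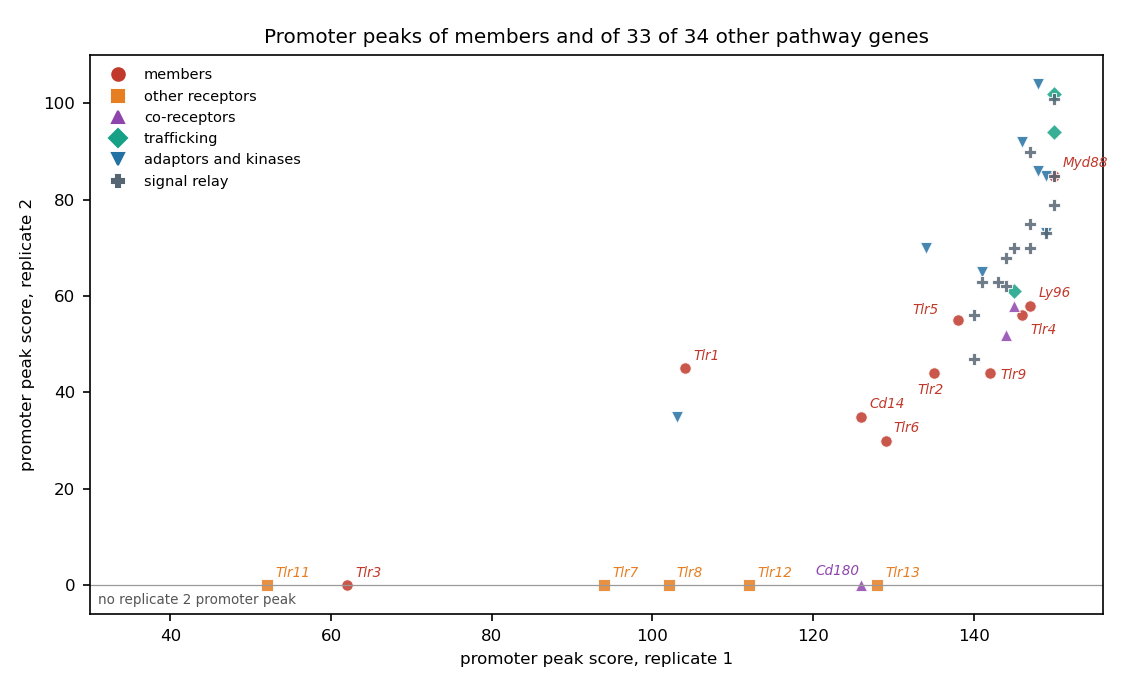
Promoter peak score in replicate 2 (y axis) against replicate 1 (x axis) for the 10 genes (red) and for 33 other genes of the pathway by group, with Cd36, which has no promoter peak, left out. Genes on the line at 0 have a replicate 1 promoter peak alone. Tlr3, Cd180 and 5 other receptors lie there, whereas all adaptor, relay and trafficking genes lie above it.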

How the data were processed

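DNase-seq libraries of mouse acute myeloid leukemia cells were used as the peak and hotspot lists that the authors deposited, 1 of each per biological replicate. A text file beside each sample links the lists to their replicate and names 1 alignment to mm10 for both libraries of a replicate. For the peak caller, its settings and the read numbers, nothing is given in the sources used here. The deposited peaks carry a whole-number score, and the deposited hotspots a −log10 q value from 1.3 to a ceiling of 100. From these, repeated entries (48 and 5) were kept once, and peaks on autosomes, X and Y were used (236215 and 67438). Coordinates are 1-based on mm10, and genes and starts are from GENCODE M21. Sequences are from RefSeq GRCm38.p6, the same build. Counts are set beside percentages over all genes or peaks where these were computed, and no test was run.

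The 10 genes and all lists were chosen with earlier results of these data known. Every one of the 10 genes is named, with its promoter peaks and its 3 highest-ranked own shared distal peaks (rank in both lists). Of the pathway list, the 4 highest-ranked genes and every gene with no shared promoter peak are named. Alternatives were other overlaps, score thresholds, promoter widths, windows, starts, hotspots, lists of equal length, and each list alone. Overlap and motif searches were tested on simulated data, where 3000 of 3000 sites and 18 of 18 motifs were called right. Python 3.11.15, numpy 2.4.6 and matplotlib 3.10.9 were used.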

Additional observations from a re-analysis of the deposited data

How the results depend on the processing

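Of 62 values of the main results under other settings, 56 stayed close to the reported value (a count or median within 1.5 times, a share within its exact 95% binomial interval) and 6 moved. The median of shared peaks outside promoters, 3.5, was 1.0 for peaks nearest to the gene's own start (1 over all genes), 0.5 in windows of 10 kb (1 over all genes) and 8.5 in windows of 100 kb (6 over all genes). Leaving out a replicate gave 3.5 to 17.5, the last without replicate 2 (15 over all genes). Genes with such a peak fell to 5 of 10 in windows of 10 kb (58.8% of all genes). With lists of equal length, 60.2% of replicate 1 peaks in the windows were shared, against 70.0% in the whole list. Calls of a promoter peak ranged over 9 to 10 genes when a replicate was left out (58.8% to 71.1% of all genes), and over 27 to 33 pathway genes. Tlr6 lost its call with scores at or above the median of each list, and Tlr5 with promoters of 500 bp. Ly86 and Ticam2 lost theirs with an overlap of at least 75 bp, Traf3 with promoters of 500 bp and Tollip with the start of the gene record alone. With peaks up to 250 bp apart counted as shared, chosen after seeing the data, the promoter calls had the same exception, Tlr3. The share with any motif match was 56.2% of 64 shared peaks, against 44.7% of all 61768 shared peaks. It was 48.1% to 56.3% when a replicate was left out, the first over all 231 replicate 1 peaks, shared or not. Under the other settings it ran from 43.8% (100 bp around the peak centre) to 57.7% (windows of 10 kb). The share over all shared peaks was computed for the main setting alone. No paired analysis was possible because each replicate has 1 list and the labels give no groups to compare. Unknown depth limits what the shorter list can show, and the absence of a peak there is not a measure of closed chromatin.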

Other observations

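Several of the strongest shared sites in the windows were nearest to other genes. The strongest site outside promoters in the Cd14 window, 17.7 kb from its start and nearest to E230025N22Rik, scored 150 in replicate 1 and 82 in replicate 2 and held a C/EBP match. A second site at 18.3 kb scored 140 in replicate 1 and 58 in replicate 2 and held an AP-1 match. In the Tlr2 window, the site at -43.6 kb, nearest to Tmem131l, scored 146 in replicate 1 and 64 in replicate 2. In the Myd88 window, the site at 6.9 kb, nearest to Acaa1a, scored 145 in replicate 1 and 54 in replicate 2. In the Tlr9 window, the sites at 36.6 and 38.7 kb, nearest to Alas1, scored 142 and 143 in replicate 1, and 42 and 63 in replicate 2. Which gene such a site acts on cannot be read from DNase-seq alone.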
